A study of Schizosaccharomyces pombe
Saccharomyces cerevisiae with 8 samples.

Results

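The RNAs described here are those that RNA polymerase III makes in budding yeast, Saccharomyces cerevisiae, apart from its tRNAs. They were chosen by gene ID: SCR1, RPR1, snR52 and snR6. All 4 were listed in both deposited tables, 4 of 6741 genes for newly synthesized RNA and 4 of 6605 genes for total RNA. The values of 8 libraries were used, in 4 groups of 2.

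RNA polymerase III makes short RNAs that are not translated, among them the tRNAs and 5S ribosomal RNA. The factor TFIIIC recognises promoter elements of most of its genes and places TFIIIB, which recruits the polymerase. The TFIIIB subunit Brf1 is related in sequence to Sua7, the yeast form of TFIIB, which serves RNA polymerase II. SCR1 is the RNA of the signal recognition particle, which directs ribosomes that make secreted proteins to the endoplasmic reticulum. RPR1 is the RNA of nuclear RNase P, which trims the 5′ ends of tRNA precursors. The box C/D RNA snR52 guides methylation of ribosomal RNA, a task for which yeast otherwise mostly uses RNAs made by RNA polymerase II. U6, the product of snR6, lies at the catalytic centre of the spliceosome. In the files SCR1 lies on chromosome V at 441987 to 442508 (sacCer3, 522 bases), RPR1 on chromosome V at 117667 to 118035 (369 bases), snR52 on chromosome V at 431129 to 431220 (92 bases) and snR6 on chromosome XII at 366235 to 366346 (112 bases). The files class SCR1 and RPR1 as ncRNA, snR52 as snoRNA and snR6 as snRNA genes.

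Every library came from the strain GZY364, of mating type MATalpha, in which Sua7 carries an auxin-dependent degron (SUA7-3V5-IAA7-kanMX6). The plant receptor OsTIR1 is expressed from the GPD1 promoter at his3 (his3::pGPD1-OsTIR1-HIS3). The marker alleles, shared by all groups, were ade2Δ::hisG and his3Δ200, leu2Δ0 and lys2Δ0, met15Δ0, and trp1Δ63 with ura3Δ0. Cells in mid-log growth received 500 µM auxin (3-indole acetic acid) or the carrier DMSO for 30 min, then 5 mM 4-thiouracil, a base analog that growing transcripts take up, for 6 min. The libraries hold either total RNA or the purified labelled part, called nsRNA below. No strain without the degron was among the samples, so auxin itself and loss of Sua7 cannot be told apart. Library totals ranged from 1291241 to 1753672 counts for nsRNA after auxin and from 7010247 to 11779971 in the other groups. The replicates are called biological, with no word on whether cultures were separate, and the p-values reflect only how far these libraries spread, possibly for technical reasons. Unless stated otherwise, values are scaled counts, the raw count divided by the authors' factor for the library. In mixed cell samples, fewer S. cerevisiae cells and less RNA per cell cannot be told apart.

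In counts per kilobase of transcript, the 4 RNAs kept one order in every library. SCR1 had the highest scaled count per kb of all listed genes in each of the 8 libraries. In nsRNA from DMSO cells it stood at 169223 ± 875 scaled counts per kb (SD, n = 2), RPR1 at 37340 ± 1755, snR52 at 1384 ± 349 and snR6 at 89.6 ± 13.5. In total RNA from DMSO cells the values per kb were 1542750 ± 62626 for SCR1, 73526 ± 5329 for RPR1, 166 ± 8.89 for snR52 and 43.4 ± 18.4 for snR6. In total RNA the mean of RPR1 per kb was 442 times that of snR52, against 27.0 times in nsRNA. Neighbours in this order were further apart than their SDs in both RNA kinds. It is an order of counts and not of amounts in the cell. Both snR52 and snR6 belong to the snoRNA and snRNA genes of at most 120 bases. Such genes had a median raw count of 53.9 in nsRNA and 18.9 in total RNA, against 171 and 160 for longer ones. A part of RNA length in the order was not tested.

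The first question was how these RNAs responded in nsRNA when auxin was given. Nearly all genes fell there, whereas RPR1 stood near its DMSO level, snR52 was higher and SCR1 somewhat lower. Relative to the median of all 5800 tested genes, -4.08 on the log2 scale, all 3 tested members lay far above. In edgeR's quasi-likelihood test 97.6% of tested genes were called lower and 1.31% higher (98.9% in either direction), at an adjusted p under 0.05. Of the 3 members tested, 1 was called higher and none lower (at an unadjusted p under 0.05, again 1 higher and none lower). DESeq2 called 1 higher and 1 lower.

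SCR1 had 88657 and 88011 scaled counts in the DMSO libraries of nsRNA, and 56381 and 64040 in the auxin libraries. Both auxin values lay below both DMSO values. The mean ratio was 0.682, a log2 change of -0.55 (SE 0.33, 95% interval -1.20 to 0.09), with an edgeR adjusted p of 0.0951. The authors' deposited table gives -0.55 with an adjusted p of 0.0177, and DESeq2 gave 0.0156. Without auxin replicate 1 the log2 change was -0.46 (adjusted p = 0.00138) and without auxin replicate 2 it was -0.65 (1.12e-05). In such a fit 1 group has a single library, which is assumed to vary like the pair of the other group, here DMSO libraries that lie close together, so these p-values add no support. The same limit holds for each fit of 2 groups below that leaves out a library. Over all 11 alternatives the adjusted p ran from 5.22e-12 to 0.448, with the lowest where other scalings turned the sign. Of the 5800 tested genes, 132 had a higher log2 change than SCR1.

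RPR1 had 13320 and 14236 scaled counts in the DMSO libraries and 14165 and 15217 in those with auxin. These values overlap, and the auxin mean was 1.07 times the DMSO mean. The log2 change was 0.09 (SE 0.34, 95% interval -0.57 to 0.75, edgeR adjusted p = 0.785). The interval does not exclude a moderate change in either direction. Among all genes per kb, RPR1 stood at ranks 19 and 22 in the DMSO libraries and at rank 2 in both auxin libraries.

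The snoRNA snR52 rose. Its DMSO libraries of nsRNA held 105 and 149.99 scaled counts, its auxin libraries 234 and 219.7, and both auxin values lay above both DMSO values. The raw counts behind them were 70 and 108 with DMSO and 337 and 318 after auxin. The log2 change was 0.83 (SE 0.31, 95% interval 0.22 to 1.44, edgeR adjusted p = 0.00794), or 1.78-fold. The call was lost without DMSO replicate 1 (log2 change 0.60, adjusted p = 0.222), which has the lower of the 2 DMSO values; over 11 alternatives the adjusted p ran from 4.46e-13 to 0.222. Its rank per kb among 6741 genes moved from 2285 and 1878 with DMSO to 7 and 16 with auxin. In the authors' deposited table its change is 0.82 on the log2 scale, with an adjusted p of 0.0272.

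U6 was barely counted. The raw nsRNA counts of snR6 were 6 and 8 with DMSO and 3 and 13 after auxin. Scaled, they were 8.97 and 11.1 with DMSO and 2.08 and 8.98 after auxin, and the groups overlap. It did not pass the filter on low counts in nsRNA, total RNA or the tests that combine them. The 95% Poisson interval of the auxin library with 3 counts ran from 0.619 to 8.77 counts, and that of the library with 13 from 6.92 to 22.2; these intervals cover counting error only. On the deposited scaling no fit that kept every library called a change in U6. With no filter its log2 change in nsRNA was -0.85 (edgeR adjusted p = 0.217). TMM scaling, which shifts all genes up, let U6 pass the filter at 3.08 (edgeR adjusted p = 0.00139). Without the nsRNA auxin library of 13 counts, its change in nsRNA minus that in total RNA was -2.67. That value leaves nsRNA after auxin to the library with 3 counts. Among the 32 snoRNA and snRNA genes of at most 120 bases listed in nsRNA, the median gene had a mean raw count of 53.9. These means take the DMSO and auxin libraries together. For snR52 the auxin libraries weigh most (337 and 318 raw counts, against 70 and 108 with DMSO), so its place is not one in DMSO cells. Of these 32, 29 lay below snR52 (mean raw count 208) and 4 below snR6 (7.50). The 42 longer ones had a median of 171, and a part of RNA length in the low counts was not tested.

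**Figure D1:**
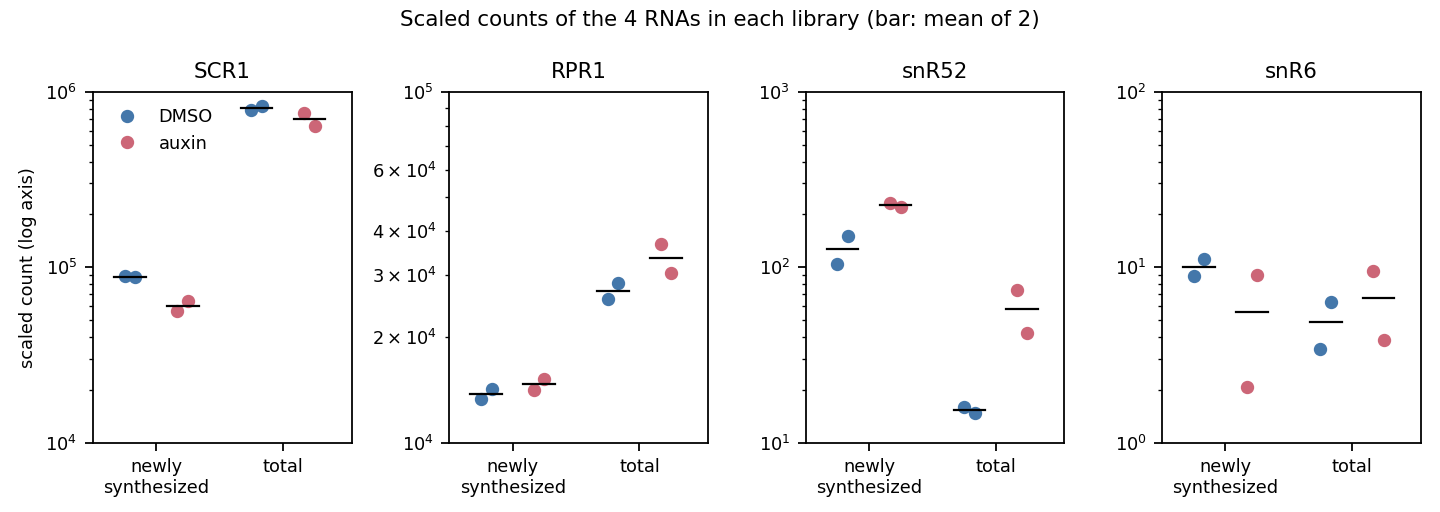
Scaled counts (log axis) of SCR1, RPR1, snR52 and snR6 in each of the 8 libraries, DMSO in blue and auxin in red, with a bar at the mean of 2 libraries. In nsRNA the auxin values of SCR1 lie below and those of snR52 above the DMSO values, and in total RNA those of snR52 rise from 15.9 and 14.7 to 73.8 and 42.1.

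The second question was whether the amount of these RNAs in the cell changed over the same 30 min. In total RNA SCR1 and RPR1 had no change past the threshold, with wide intervals, while snR52 rose almost 4-fold from a very low count. The median of all 5479 tested genes was -2.34, with 90.3% called lower and 1.44% called higher (91.7% in either direction). Of the 3 members tested, 1 was called higher and none lower by edgeR, and DESeq2 gave the same counts; at an unadjusted p under 0.05 they were again 1 and none.

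SCR1 had 782200 and 828431 scaled counts in total RNA from DMSO cells and 755847 and 634922 from auxin cells, a mean ratio of 0.863. Both auxin values lay below both DMSO values, and the auxin libraries differed more from each other than the higher of them did from the nearest DMSO library. The log2 change was -0.21 (SE 0.17, 95% interval -0.54 to 0.12, edgeR adjusted p = 0.215). SCR1 took 8.33% of all counts in one DMSO library (95% Wilson interval 8.31 to 8.35) and 7.47% in the other (7.45 to 7.49). In the auxin libraries the shares were 12.4% (12.40 to 12.45) and 9.23% (9.21 to 9.25). These intervals cover counting error only, and the replicates of each group lay outside each other's interval. A share also depends on the counts of all other genes, so a higher share is not a higher scaled count.

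RPR1 had 25741 and 28521 scaled counts with DMSO and 36735 and 30542 after auxin. Both auxin values were above both DMSO values, but the log2 change of 0.31 (SE 0.22, 95% interval -0.12 to 0.74) had an edgeR adjusted p of 0.169. In the auxin group, replicate 1 was the higher library for SCR1, RPR1 and snR52 alike.

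For snR52 the raw counts in total RNA were 14 and 14 with DMSO and 85 and 44 after auxin. Scaled, they were 15.9 and 14.7 against 73.8 and 42.1, with no overlap. The log2 change was 1.92 (SE 0.36, 95% interval 1.22 to 2.62, edgeR adjusted p = 1.09e-07), or 3.79-fold. Leaving out single libraries gave log2 changes between 1.46 and 2.26, each past the threshold. Its rank per kb among 6605 genes went from 3710 and 4033 to 608 and 927. For snR6 the raw counts were 3 and 6 with DMSO and 11 and 4 after auxin, which overlap. The authors' deposited table lists log2 changes of -0.76 (adjusted p = 0.557) for snR6 in nsRNA and 0.37 (adjusted p = 0.764) in total RNA.

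These directions rest on the deposited factors. TMM scaling, which sets the typical gene near no change, moved the all-gene median up by 4.01 for nsRNA and by 2.15 for total RNA. With it SCR1 turned to 3.44 and 1.93, and RPR1 went to 4.100 and 2.45. For snR52 the values became 4.83 and 4.06. All 6 of these values passed the threshold. A change of scaling shifts all genes by nearly the same amount. It is therefore no separate test of where the 3 RNAs lay relative to the typical gene.

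**Figure D2:**
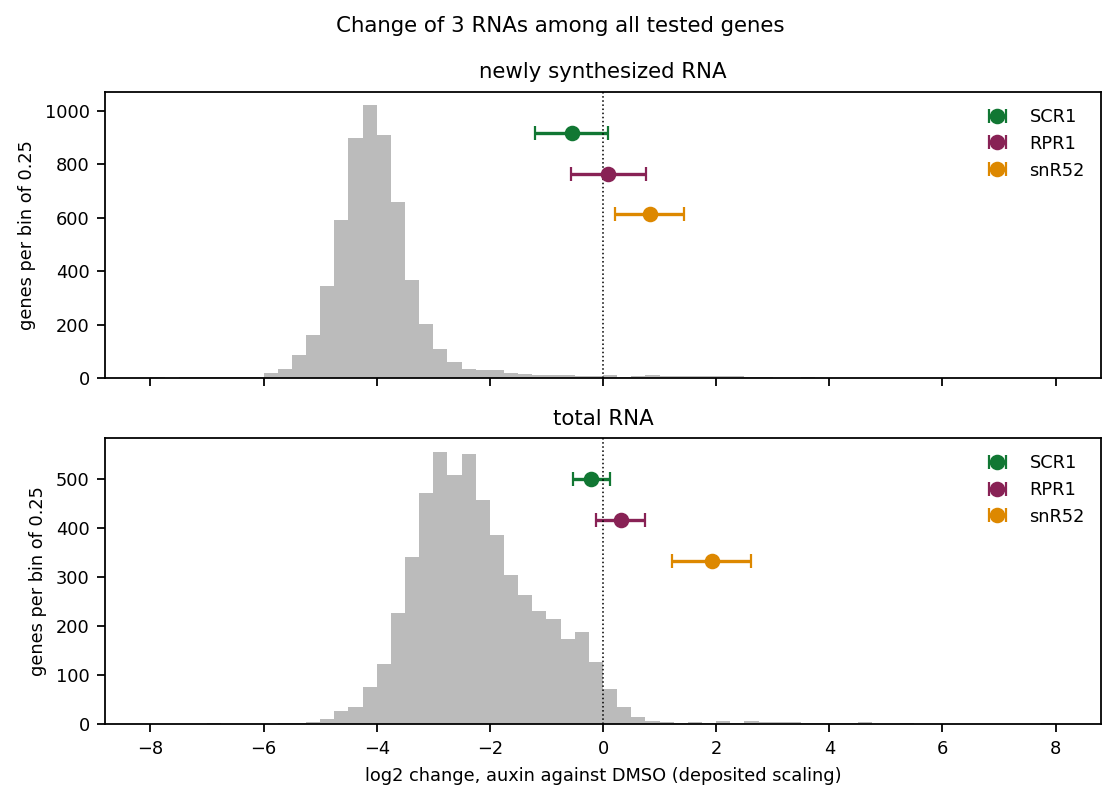
Histograms of the log2 change of all tested genes (x axis; y axis, genes per bin of 0.25) in nsRNA (upper panel) and total RNA (lower panel), with points and 95% intervals for 3 members drawn at arbitrary height. SCR1, RPR1 and snR52 lie between -0.55 and 0.83 in nsRNA, where the median gene is at -4.08, and between -0.21 and 1.92 in total RNA, where it is at -2.34.

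The members were also compared with each other, through ratios to SCR1 within a library. Such ratios need no spike-in factor, and the test took SCR1 as the measure of library size. In nsRNA both RPR1 and snR52 rose relative to SCR1, so the 3 RNAs did not move as one. Of tested genes, 1.74% were called higher relative to SCR1 and 96.9% lower (98.7% in either direction). In total RNA the shares were 1.52% higher and 84.5% lower (86% in either direction), and of the 2 members tested snR52 was called higher.

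RPR1 stood at 150.2 and 162 counts per 1000 SCR1 counts in nsRNA from DMSO cells and at 251 and 238 after auxin. The groups do not overlap. The log2 change was 0.65 (SE 0.24, 95% interval 0.19 to 1.11, edgeR adjusted p = 0.00605), or 1.57-fold. The call was lost without DMSO replicate 1 (0.60, adjusted p = 0.223) or replicate 2 (0.70, adjusted p = 0.147); over 8 alternatives the adjusted p ran from 1.49e-05 to 0.223. In total RNA the ratio was 32.9 and 34.4 with DMSO and 48.6 and 48.1 after auxin, again with no overlap. That difference of 0.52 (SE 0.31, 95% interval -0.09 to 1.13) did not pass in edgeR (adjusted p = 0.106) and did in DESeq2 (0.0301). Without auxin replicate 1 the change was 0.51 and without auxin replicate 2 it was 0.53. Leaving out DMSO replicate 1 or 2 gave 0.49 or 0.56. The fit shares its estimate of spread across genes, so this SE is not the spread of the RPR1 ratios alone.

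Per 1000 SCR1 counts, snR52 had 1.18 and 1.70 counts in nsRNA from DMSO cells and 4.15 and 3.43 after auxin. The log2 change was 1.39 (SE 0.28, 95% interval 0.83 to 1.95, edgeR adjusted p = 1.14e-06). In total RNA the ratio went from 0.0203 and 0.0178 to 0.0976 and 0.0664, a log2 change of 2.12 (SE 0.36, 95% interval 1.41 to 2.83, edgeR adjusted p = 1.07e-08). Both calls held in each alternative run, and the groups overlap in neither RNA kind. Against RPR1, snR52 went from 7.86 and 10.5 per 1000 RPR1 counts to 16.5 and 14.4 in nsRNA. In total RNA that ratio went from 0.617 and 0.516 to 2.01 and 1.38. The ratio to RPR1 was above its DMSO values in every auxin library; with 2 against 2 libraries an exact permutation test cannot go below p = 0.333, so none was used.

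Whether the response differed between new and total RNA was tested as an interaction over all 8 libraries, each table with its own deposited factors. This fit took the libraries as independent. An nsRNA and a total RNA library of the same number and treatment may share a culture, and such pairs were not modelled. The difference, nsRNA minus total RNA, was -0.34 for SCR1 (95% interval -0.92 to 0.24, edgeR adjusted p = 0.270) and -0.22 for RPR1 (-0.88 to 0.45, adjusted p = 0.547). For snR52 it was -1.09 (SE 0.48, 95% interval -2.03 to -0.16, edgeR adjusted p = 0.0298), the rise being larger in total RNA. Across all 5825 tested genes the median difference was -1.65, and 78.7% were called lower and 0.0172% higher. The share for lower genes leaves the call of snR52 unremarkable. It was lost with DESeq2 (-1.10, adjusted p = 0.0751) and without total DMSO replicate 1 (-1.15, 0.0793) or replicate 2 (-1.04, 0.102), total auxin replicate 1 (-0.63, 0.291) or nsRNA DMSO replicate 2 (-0.81, 0.164). Over 14 alternatives its adjusted p ran from 0.00580 to 0.423, and with TMM the sign turned for snR52 (0.75, adjusted p = 0.216), SCR1 (1.498) and RPR1 (1.63).

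In DMSO cells the members differed widely in how much of them lay in the labelled fraction. This comparison used raw counts of both tables with TMM scaling, relative to the typical gene. SCR1 was lower in nsRNA than in total RNA by -4.81 on the log2 scale (SE 0.21, 95% interval -5.23 to -4.39, edgeR adjusted p = 1.73e-87), and 5599 of 5614 genes had a higher value. RPR1 was lower by -2.60 (SE 0.08, 95% interval -2.76 to -2.44, edgeR adjusted p = 2.87e-146). In contrast, snR52 was higher in nsRNA, by 1.43 (SE 0.31, 95% interval 0.82 to 2.05, edgeR adjusted p = 9.54e-06). This value, and the ratio of snR52 to SCR1 given below, rest on 14 and 14 raw counts in total RNA. A higher value was not particular to snR52. Among 63 tested snoRNAs of RNA polymerase II, 22 were called higher and 24 lower, with a median of 0.09 and values up to 1.94. Of all genes 39% were called lower and 40.4% higher (79.3% in either direction), so that a call by itself is common. Per 1000 SCR1 counts, the DMSO mean of RPR1 was 4.63 times as high in nsRNA as in total RNA, and that of snR52 was 75.7 times as high. After auxin these ratios were 5.06 and 46.2; neither ratio was tested between treatments.

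**Figure D3:**
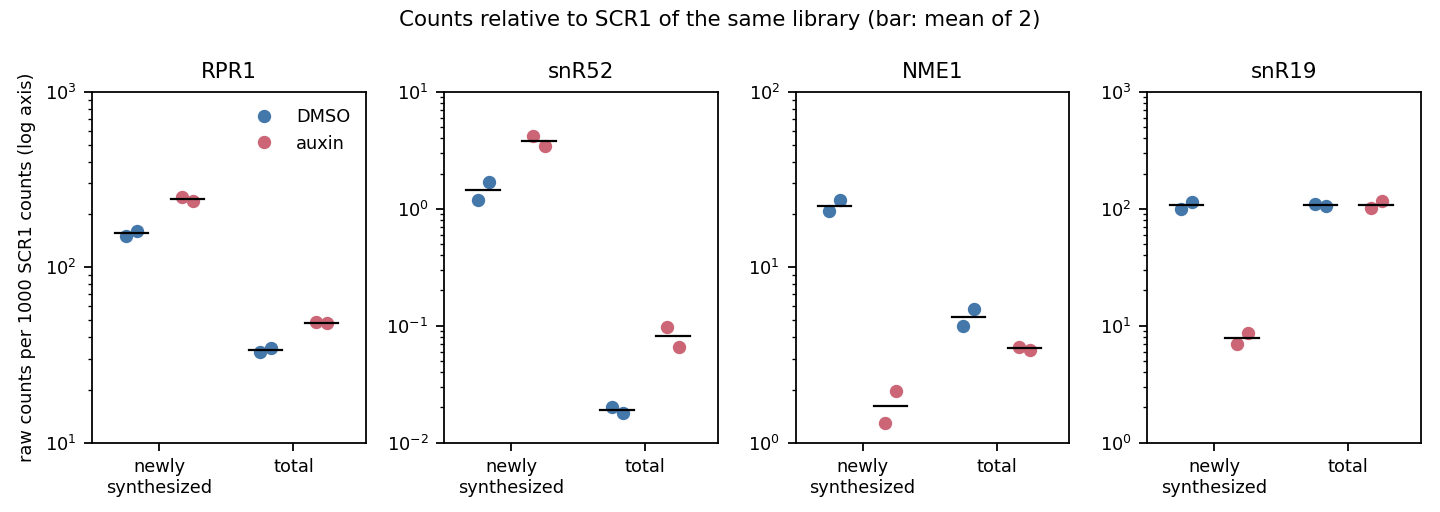
Raw counts per 1000 SCR1 counts of the same library (log axis) for RPR1, snR52 and, as RNAs made by RNA polymerase II, NME1 and snR19, with DMSO in blue, auxin in red and a bar at the mean of 2. In nsRNA RPR1 and snR52 lie higher after auxin, while NME1 falls from 20.8 and 24.0 to 1.29 and 1.96 and snR19 from 100.3 and 115 to 7.02 and 8.63.

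RNAs of like function that RNA polymerase II makes served for comparison. NME1, the RNA of RNase MRP, which shares most of its proteins with RNase P, had 1846 and 2112 scaled counts in nsRNA from DMSO cells and 72.8 and 126 after auxin. Relative to SCR1 its log2 change was -3.78 (SE 0.29, edgeR adjusted p = 5.39e-39). In total RNA NME1 went from 3596 and 4772 scaled counts to 2658 and 2138, which is -0.80 on the log2 scale (edgeR adjusted p = 0.00156) with the deposited factors. Relative to SCR1 the total RNA change of NME1 was -0.59 and did not pass (edgeR adjusted p = 0.117). Of the spliceosomal RNAs listed besides U6, LSR1 (U2), snR14 (U4) and snR19 (U1) were tested, and all 3 fell relative to SCR1 in nsRNA, with log2 changes of -3.84, -3.70 and -3.78 in that order. U4, which pairs with U6, went from 393 and 504 scaled counts to 20.1 and 26.9 in nsRNA, and from 83.9 and 108 to 6.94 and 7.66 in total RNA. The change of U4 in total RNA rests on few raw counts, 74 and 103 with DMSO and 8 and 8 after auxin. For snR19 the raw counts with DMSO were 75676 and 83550. In total RNA the ratios of LSR1 (0.04, edgeR adjusted p = 0.881) and snR19 (0.00, adjusted p = 0.989) to SCR1 had not changed past the threshold, while that of snR14 changed by -3.49. The ratio of snR19 to SCR1 was thus 110 and 106 per 1000 with DMSO and 101 and 115 after auxin in total RNA, with overlapping groups.

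The snoRNAs of RNA polymerase II, the class to which snR52 belongs by function, fell in nsRNA at 64 of 64 tested genes, with a median log2 change of -4.15 against -4.08 for all genes, of which 97.6% fell. The snoRNAs snR86 (-3.73) and snR30 (-3.82), of the H/ACA class, had the highest means. In total RNA 51 of 63 were lower and none higher, where 90.3% of all genes were lower. Their median was -0.93, against -2.34 for all genes, with values from -5.24 to 0.16. The fitted value of snR52 was above that range in both RNA kinds, as the highest snoRNA value in nsRNA was -2.57. Of the nuclear tRNA genes, the main products of RNA polymerase III, 78 of 254 listed in nsRNA passed the filter, with a median change of 1.55 and values from -2.57 to 4.54. Of these 78, 52 were called higher and 4 lower, where 1.31% of all tested genes were higher and 97.6% lower. Relative to SCR1 their median was 2.10, with 63 higher and 3 lower, where the shares of all tested genes were 1.74% and 96.9%. In total RNA 45 of 244 passed, with a median of 3.25. A gene can pass this filter through its auxin counts alone, and copies of near-identical sequence can share reads, so nothing further was drawn from these counts.

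The messenger RNAs of the polymerase III machinery are themselves made by RNA polymerase II. In nsRNA all 10 tested genes of subunits found in RNA polymerase III alone fell, with a median of -3.95, and so did 11 of 11 genes of its factors, with a median of -4.07. These counts and medians are close to those of all tested genes, of which 97.6% fell with a median of -4.08. The largest subunit gene RPO31 changed by -3.58 and the second largest, RET1, by -3.27. BRF1, of TFIIIB, changed by -4.07 and TFC3, of TFIIIC, by -4.97. SPT15, which encodes the TATA-binding protein used by all 3 polymerases, changed by -3.93. Against SCR1, the change of BRF1 was -3.52 (SE 0.28, edgeR adjusted p = 1.14e-34).

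In total RNA 9 of 10 subunit genes fell (median -2.04) and 11 of 11 factor genes (median -2.51), near the 90.3% and the median of -2.34 of all tested genes. RET1 (-0.26, edgeR adjusted p = 0.325) did not pass, and RPO31 (-0.64) and LHP1 (-0.76), which encodes a protein that binds the 3′ ends of new polymerase III RNAs, fell less than BRF1 (-2.14) by their fitted values. With TMM scaling the median of all genes moves by the amounts given above, so these falls too are relative to the deposited factors. MAF1, the repressor of RNA polymerase III, was not matched by symbol.

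Genes of the proteins that bind the 4 RNAs fell too, as did 97.6% of all tested genes in nsRNA and 90.3% in total RNA, so their counts are no result about these genes. By their deposited descriptions, 6 genes encode subunits of the signal recognition particle, and all 6 fell in nsRNA (median -3.92) and in total RNA (median -2.49). Among them SRP54, which binds signal sequences, changed by -3.89 and -1.40. All 9 genes described as RNase P subunits fell as well, with medians of -4.16 and -2.79, POP5 by -4.61 and -2.49 and POP7 by -3.91 and -2.94. These 2 lists were drawn from the descriptions after the values had been seen, because 1 of 6 and 2 of 11 symbols were matched. Of the genes of proteins on U6, 3 of 8 symbols were matched and 3 of 3 fell in both RNA kinds, with LSM4 at -4.56 and -2.74 and LSM2 at -4.88 and -2.97. Of box C/D proteins, 3 of 4 were matched and 3 of 3 fell, with NOP56, a core protein of snR52-like particles, at -3.44 and -0.89 and NOP58 at -3.81 and -1.05.

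**Figure D4:**
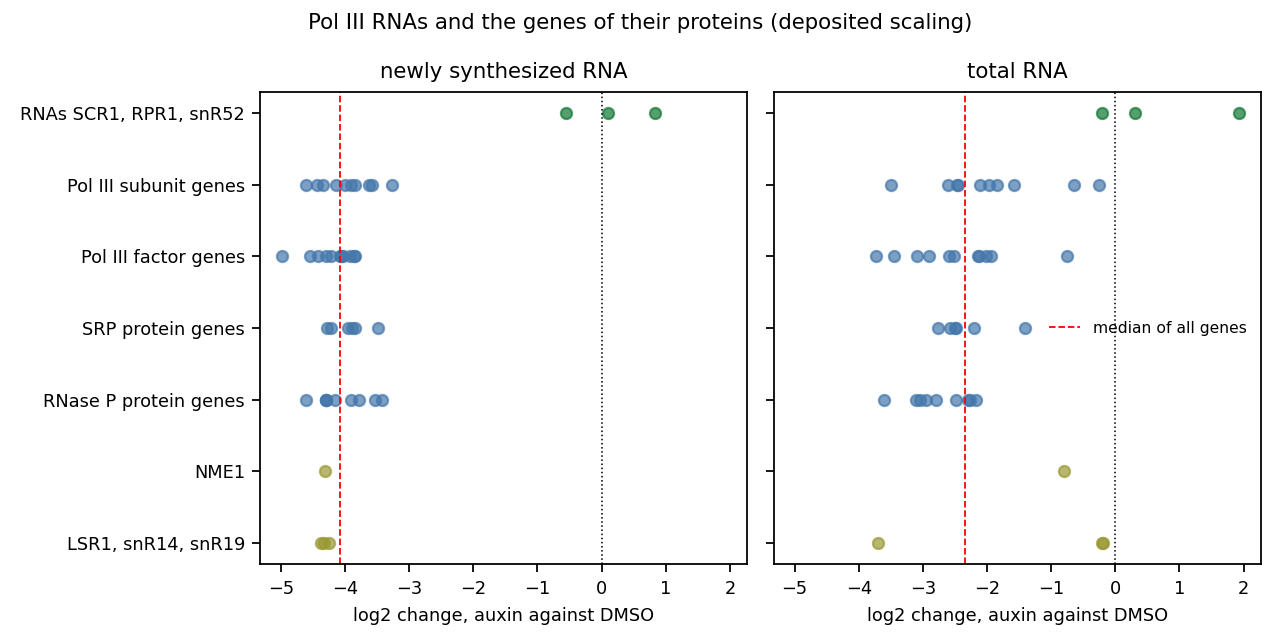
Log2 change, auxin against DMSO, on the deposited scaling (x axis) in nsRNA (left) and total RNA (right), with 1 point per gene for the 3 tested polymerase III RNAs, genes of RNA polymerase III and of the proteins bound to SCR1 and RPR1, and RNAs made by RNA polymerase II; the dashed red line is the median of all tested genes. The 3 polymerase III RNAs lie between -0.55 and 0.83 in nsRNA, to the right of every other point in that panel.

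No listed gene overlapped a member. YER137C ends 167 bases from SCR1 and had 45 and 48 raw counts in nsRNA from DMSO cells and 1 and 10 after auxin. YEL020W-A lies 192 bases from RPR1 and went from 299 and 295 raw counts to 26 and 22, and YEL020C-B, 286 bases from RPR1, had at most 7 in any library. No gene was listed within 300 bases of snR52 or snR6. The neighbours of SCR1 and RPR1 thus had lower raw counts in each auxin library of nsRNA. Those libraries held 1291241 and 1753672 counts in all, against 9496247 and 11779971 with DMSO. Of all tested genes 97.6% fell there, so the lower counts are no result about the neighbours. Raw counts of SCR1 went from 59309 and 63373 to 81299 and 92678, and those of RPR1 from 8911 and 10251 to 20426 and 22022. These raw counts are not corrected for the library factors, which were 0.669 and 0.720 with DMSO and 1.44 and 1.45 after auxin. On scaled counts SCR1 was lower after auxin (mean ratio 0.682) and RPR1 stood near its DMSO level (1.07).

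Likeness to each member was measured over the 8 libraries as the root mean square difference of log2 values from the DMSO mean, over the 3989 or 3990 other genes whose mean was 100 scaled counts or more in each table. The 3 genes most like SCR1 were all encoded in mitochondria, OLI1 (0.23), COX2 (0.26) and COX3 (0.34). For RPR1 they were ATP6 (0.23), COX1 (0.26) and Q0255 (0.30), also mitochondrial. Closest to snR52 was YLR343W (0.36), followed at a distance by Q0255 (0.85) and CIS1 (0.85). The cut on the mean kept nearly all nuclear tRNA genes from being candidates. After tW(CCA)P (139), the highest mean of a tested tRNA gene in total RNA was 64.3. For snR6 the nearest were SRO77 (0.51), YOR297C (0.51) and OLI1 (0.54), from counts too few to carry weight.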

How the data were processed

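Total RNA and 4-thiouracil-labelled RNA were sequenced from 8 libraries. Before RNA was extracted, S. cerevisiae cells were combined with S. pombe cells at 1 to 3, per the labels' protocols; ribosomal RNA was then removed with oligos, and a stranded kit took 800 ng (total) or 300 ng (labelled) as input. The submitters' processing notes name sacCer3 and bcl2fastq 2.17.1.14. Aligner, counter, strand setting and any combined genome: not given in the sources used here.

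Each deposited table holds whole-number counts for every gene, per the file headers. Beside them stands a deposited normalized signal, which equals the count over 1 factor per library (0.669 to 0.720 nsRNA DMSO, 1.44 to 1.45 nsRNA auxin, 0.881 to 0.951 total DMSO, 1.04 to 1.15 total auxin). How the authors set these factors is not given, so that they follow S. pombe RNA is an assumption. Log2 changes and p-values in the deposited tables come from the authors, per the file headers.

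The main test was edgeR 4.0.16 (R 4.3.3), glmQLFit and glmQLFTest, with library sizes in proportion to those factors, a filterByExpr filter (minimum count 10) and Benjamini-Hochberg adjustment over all genes tested. Fits relative to SCR1 used its raw count as library size and take it as free of error. SE is the absolute log2 change divided by the square root of F, not a fitted error, and 95% intervals are built on it. The spread behind F is estimated with information shared across genes, so an SE is not the spread of a single gene's libraries alone. Fits were also run on simulated counts in which 200 genes changed, with a fixed dispersion and the library sizes supplied. That setting differs from these data, where nearly all genes fell, so it says nothing about the scaling. Alternatives were DESeq2 1.42.0, TMM and median-of-ratios scaling, 2 other filters, blocking on the replicate number, a joint fit of 8 libraries, and single libraries left out. Replicates differed by more than sampling noise (chi-square per degree of freedom 2.89 to 13.9, the highest in total RNA after auxin). Likeness used a pseudocount of 1.

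Members, lists and tests were chosen with earlier results of these data known. Named genes were the members, the 2 genes of highest mean in each list of matched symbols, the comparison RNAs, the neighbours within 300 bases and the 3 most like genes; BRF1 and the second values of genes named by 1 table were added after their values were seen. SUA7, the check on the degron gene, changed by -3.64 in nsRNA and -2.68 in total RNA; since a degron removes protein, this is no check of a label.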

Additional observations from a re-analysis of the deposited data

Results flagged for a closer look

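In the edgeR test with the deposited factors, the response of snR52 to auxin differed between the RNA kinds: its log2 change in nsRNA minus that in total RNA was -1.09 (edgeR adjusted p = 0.0298, 95% interval -2.03 to -0.16). The change was 0.83 in nsRNA and 1.92 in total RNA, and the total RNA value rests on 14 and 14 raw counts in DMSO. Of all tested genes, 78.7% were called in this direction. The call was lost with DESeq2 (-1.10, adjusted p = 0.0751) and in 4 of 8 fits that left out a library, and the sign turned with TMM (0.75) and median-of-ratios scaling (0.53). The part of the low counts was not tested.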

How the results depend on the processing

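Over 28 values and counts, 223 of 287 alternative values kept their direction and side of the threshold, or stayed within 1.5 times for a count. The cause of the other moves was not tested. Scaling moved most. With TMM and median-of-ratios scaling in turn, lower and higher genes numbered 1723 and 1601, then 1563 and 1737 in nsRNA (5659 and 76 with the deposited factors). In total RNA they numbered 2305 and 1833, then 1974 and 2038 (4946 and 79), and for the interaction 1370 and 1679, then 1645 and 1102 (4585 and 1). Under these scalings SCR1 turned to 3.44 and 3.49 in nsRNA, 1.93 and 2.07 in total RNA, and 1.498 and 1.28 for the interaction. RPR1 went to 4.100 and 4.14, to 2.45 and 2.59, and to 1.63 and 1.41. The interaction of snR52 turned to 0.75 and 0.53.

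With no filter, higher genes numbered 123 in nsRNA, 169 in total RNA, 3 for the interaction, and 181 and 178 relative to SCR1 in nsRNA and total RNA (101 and 83 with the filter). At a mean count of 50 or more they numbered 11, 20, 17 and 23 in nsRNA, total RNA and the same relative to SCR1, and snR52 was no longer tested in total RNA. DESeq2 called 32 higher in nsRNA and 66 relative to SCR1; it called SCR1 in nsRNA (-0.55) and RPR1 relative to SCR1 in total RNA (0.52), and lost the interaction of snR52 (-1.10). The joint fit of 8 libraries called SCR1 in nsRNA (-0.55, adjusted p = 0.00820) and gave 119 higher genes in total RNA.

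Leaving out single libraries gave -0.65 to -0.46 for SCR1 and 0.60 to 1.11 for snR52 in nsRNA, and -1.43 to -0.63 for the interaction of snR52. With 1 library left in a group, that library is assumed to vary like the other groups. Relative to SCR1, RPR1 ran from 0.60 to 0.70 in nsRNA and from 0.49 to 0.56 in total RNA. Higher genes ran from 0 to 3 for the interaction and from 92 to 166 in total RNA relative to SCR1, with 166 without auxin replicate 1.

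Same-numbered libraries did not deviate together (correlations -0.04 in nsRNA and 0.09 in total RNA), and the labels tie them to no shared culture or day. Between nsRNA and total RNA the correlations were 0.07 with DMSO and 0.07 with auxin. The block for the interaction was set within each RNA kind, so it did not pair nsRNA with total RNA. With the replicate number as a block, edgeR called SCR1 (-0.22, adjusted p = 6.03e-17) and RPR1 (0.31, adjusted p = 2.70e-12) in total RNA. The changes themselves were nearly those of the main fit. With 2 libraries per group, the added term leaves little to measure spread, so these p-values add no support. The block fit gave 123 higher genes in total RNA and 2 for the interaction, and left the other calls of the members as they were. U6 had few counts, and its value turned on the scaling: with no filter its log2 change was -0.85 in nsRNA (edgeR adjusted p = 0.217) and 0.46 in total RNA (0.584), and with TMM scaling 3.08 in nsRNA (0.00139).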

Other observations

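The deposited descriptions name 2 further RNAs of RNA polymerase III outside the rule. RNA170 had 13 and 6 raw counts in nsRNA from DMSO cells and 6 and 2 after auxin, and in total RNA 1 and 1 against 3 and 0. ZOD1 was listed in total RNA, with 1 raw count in each DMSO library and 0 in each auxin library, at or under the limit of 3 counts that a count of 0 allows. Neither supports a direction on its own.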
